A study of Mus musculus with 56 samples.

Results

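The collagen genes were taken as every gene whose symbol reads Col, a number, a and a number in the array annotation, counted over probe sets that name 1 gene. The rule found 42 genes with 82 probe sets, of 18194 genes measured. Each gene was read from the probe set with the highest mean in that tissue, and all values are log2 signals. The samples were whole colon and whole jejunum of BALB/C mice given 3 Gy of ionizing radiation, with 1 mouse on each array. Mice were Tweak KO or WT. Tnfsf12 encodes Tweak, a TNF-like cytokine. The KO allele and its breeding are not given in the sources used here. In KO colon 5, 5 and 5 arrays were taken at 0, 6 and 24 h after irradiation, and in WT colon 5, 4 and 4. In KO jejunum there were 5, 4 and 5 arrays at 0, 6 and 24 h, and in WT jejunum 5, 5 and 4. The labels do not say whether mice at 0 h had been irradiated. Their number limits the precision of every value below.

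Collagen chains wind into triple helices in the endoplasmic reticulum, are secreted as procollagens, trimmed and then crosslinked by lysyl oxidases. Fibrillar types form the tensile fibrils of the submucosa and muscle coats of the gut, type IV forms the network of basement membranes, and type VI forms beaded filaments that link them. In the gut wall fibroblasts and smooth muscle cells make most fibrillar collagen. A gene's signal in whole tissue is a sum over all its cells, so more cells of a type and more RNA per cell cannot be told apart.

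The promoters of 4 chains are shown as examples of the 6 that were called higher in KO colon than in WT colon at both 0 h and 24 h, and those of Col1a1 and Col4a2 are not shown. Each is the 250 bases before the start site, on the plus strand, 5′ to 3′, from RefSeq with the build GRCm38.p6. Capitals mark the TATA box (TATAAA), the CCAAT box (CCAAT) and the GC box (GGGCGG), searched on both strands.
Col1a2, chr6:4505368-4505617: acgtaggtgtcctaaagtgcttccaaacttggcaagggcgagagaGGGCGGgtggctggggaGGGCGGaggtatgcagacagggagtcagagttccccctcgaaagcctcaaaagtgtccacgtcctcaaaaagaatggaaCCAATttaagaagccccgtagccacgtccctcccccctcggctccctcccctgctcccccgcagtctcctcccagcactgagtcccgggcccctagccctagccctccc
Col3a1, chr1:45311288-45311537: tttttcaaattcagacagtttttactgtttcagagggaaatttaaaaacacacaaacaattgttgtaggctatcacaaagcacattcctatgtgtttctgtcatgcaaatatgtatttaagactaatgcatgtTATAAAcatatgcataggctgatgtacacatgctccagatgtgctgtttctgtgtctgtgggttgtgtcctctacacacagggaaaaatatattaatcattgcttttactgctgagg
Col5a1, chr2:27886175-27886424: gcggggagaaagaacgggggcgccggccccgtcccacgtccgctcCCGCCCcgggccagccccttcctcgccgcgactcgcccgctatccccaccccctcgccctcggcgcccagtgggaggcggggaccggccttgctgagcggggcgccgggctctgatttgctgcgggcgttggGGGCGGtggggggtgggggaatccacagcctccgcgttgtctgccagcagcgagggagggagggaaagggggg
Col15a1, chr4:47207762-47208011: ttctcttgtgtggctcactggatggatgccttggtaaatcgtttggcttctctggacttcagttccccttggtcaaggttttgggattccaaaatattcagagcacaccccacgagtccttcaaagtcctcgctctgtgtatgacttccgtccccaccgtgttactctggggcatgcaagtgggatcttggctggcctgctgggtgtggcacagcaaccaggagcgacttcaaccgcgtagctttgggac
In Col1a2 the CCAAT box began at position -109 before the start and the GC boxes at -205 and -188. In Col3a1 the TATA box began at -117, in Col5a1 GC boxes began at -205 on the opposite strand and -73, and Col15a1 held none of the 3 motifs. Of 36 collagen promoters, which belonged to 33 of the 42 genes, 58.3% held a GC box, 36.1% a CCAAT box and 13.9% a TATA box. The shares over all 32851 promoters were 32.7%, 33.8% and 12.4%. These are matches of letters, not sites.

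The array floor, the lowest signal that the deposited values take, was log2 2.28 in colon and 2.32 in jejunum. A gene was counted as staying at the floor where all 6 group means of the tissue were less than 0.5 above it. In colon 17 collagen genes stayed at the floor, and in jejunum 19. The 16 that did so in both tissues were the cartilage chains Col2a1, Col9a2, Col9a3, Col10a1, Col11a1 and Col11a2, the basement membrane chains Col4a3, Col4a4 and Col4a6, and Col6a5, Col17a1, Col19a1, Col22a1, Col24a1, Col25a1 and Col26a1. Col9a1 stayed at the floor in colon alone of the tissues. Its signal was within 0.1 of the floor on 22 of the 28 jejunum arrays and 4.53 on the highest. Col7a1, Col8a1 and Col8a2 stayed there in jejunum only. At the margin, the highest group mean in colon was 2.79 for Col7a1, just above the limit, and 2.76 for Col17a1, just below it. In jejunum the highest group mean was 2.92 for Col5a3 and 2.83 for Col9a1, both just above the limit. Col5a3 read 3.68 on WT 24 h replicate 2 and 2.67 on the other WT 24 h jejunum arrays.

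That left 25 collagen genes above the floor in colon and 23 in jejunum. By class, colon had 7 of 11 fibrillar chains, 3 of 6 basement membrane chains, 4 of 5 beaded filament chains, both multiplexins, 4 of 9 FACIT chains (which sit on fibril surfaces), 3 of 5 network and anchoring chains and 2 of 4 transmembrane chains. Jejunum had the same numbers for the fibrillar, basement membrane, beaded filament and transmembrane classes and for the multiplexins. It had 5 of 9 FACIT chains and none of the 5 network and anchoring chains. Within a group, arrays differed more for these genes in jejunum than in colon. The mean SD of a gene's signal over the 6 groups had a median of 0.373 over the 23 genes in jejunum, against 0.220 over the 25 in colon.

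The check of the targeted gene used a probe set shared by Tnfsf12 and the read-through Tnfsfm13. Its signal lay between 2.28 and 2.81 on the 15 KO colon arrays and between 3.71 and 4.67 on the 13 WT colon arrays. In jejunum it lay between 2.34 and 2.75 on 14 KO arrays and between 2.77 and 4.09 on 14 WT arrays. By the names of the array files, all WT arrays and replicate 1 of each KO 0 h group formed 1 batch, and all other KO arrays a second. A KO against WT value with batch as a term therefore rests on 1 KO array in each tissue. Some arrays stood apart. Replicate 3 of the KO 0 h colon group, labelled 0 h, had a mean of 9.06 over 5 genes that p53 switches on after irradiation, against 7.15 to 7.33 on the other 4 arrays of its group. Replicate 2 of WT 0 h colon had a mean of 7.48 over 9 markers of squamous epithelium, against 3.21 to 4.50 on the others of its group. Replicate 2 of WT 24 h jejunum had a mean of 10.7 over 8 smooth muscle markers, against 9.12 to 9.76 on the other 3. Counts of calls are also given without these 3 arrays. A gene was called where its limma adjusted p, over all 13645 genes tested in that tissue, was below 0.05. Counts at an unadjusted p below 0.05 are of collagen genes alone. No share of all genes was counted at that threshold, and the shares printed near such counts are of called genes. Of the collagen genes 30 in each tissue passed the filter on low mean signal and entered the fit, and the 12 that failed in each tissue all stayed at the floor. Some of the 30 stayed at the floor too. In colon these were Col2a1, Col4a4, Col17a1, Col22a1 and Col25a1. In jejunum they were Col4a4, Col4a6, Col7a1, Col8a1, Col9a3, Col11a1 and Col25a1. Medians and counts over the 30 include them.

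In colon at 0 h a part of the collagen genes was called higher in KO than in WT, and the calls depended on batch and on single arrays, as given below. Of 30 tested, 9 were called, all of them higher, where 2.07% of all genes were called in either direction and 1.38% were called higher. They were 4 fibrillar chains (Col1a1, Col1a2, Col3a1, Col5a1), the basement membrane chains Col4a2 and Col4a5, the beaded filament chain Col6a1, the FACIT chain Col12a1 and the multiplexin Col15a1. The median difference over the 30 was 0.44, against -0.00087 over all genes, and 26 of 30 differences were positive.

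**Figure D1:**
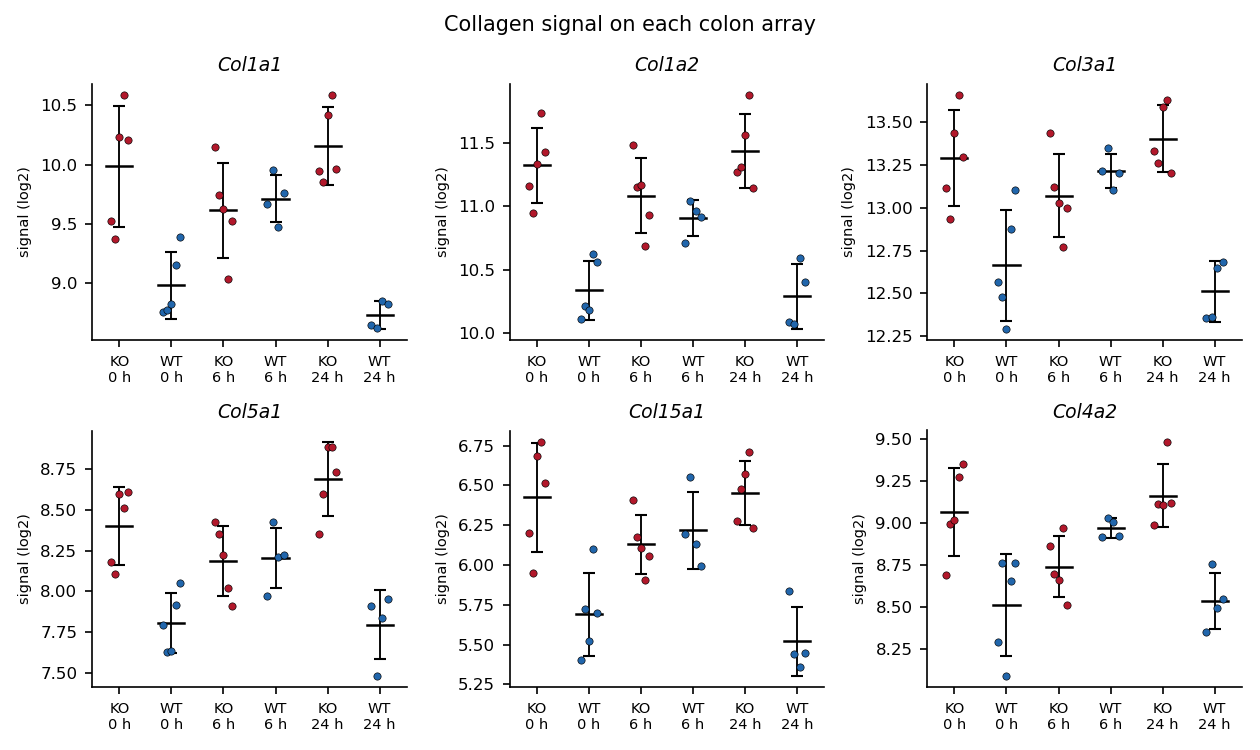
Log2 signal of 6 collagen genes on each colon array, by genotype and time (red KO, blue WT). Points are arrays, the long bar is the group mean and the error bar its SD. KO points mostly stand above WT points at 0 h, lie above all of them at 24 h and mix with them at 6 h. Each panel has its own axis range, which does not start at 0.

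Col1a1 and Col1a2 encode the chains of type I collagen, the main fibril of the gut wall. Col1a1 signal was 9.53, 9.37, 10.23, 10.58 and 10.21 in KO 0 h colon, against 8.76, 8.78, 8.83, 9.15 and 9.39 in WT 0 h colon. The lowest KO array lay just under the highest WT array, and the other 4 KO arrays lay above all WT arrays. The difference was 1.00 ± 0.206 (SE), 2.01-fold, with a limma adjusted p of 0.0115. Col1a2 signal was 11.16, 10.95, 11.33, 11.74 and 11.42 in KO, against 10.11, 10.22, 10.18, 10.62 and 10.56 in WT. Here every KO array lay above every WT array. Col1a2 was higher by 0.98 ± 0.158 (adjusted p = 0.00117).

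Col3a1, whose chain forms type III fibrils in distensible tissue, read 13.12, 12.93, 13.44, 13.66 and 13.30 in KO 0 h colon, against 12.57, 12.48, 12.30, 12.88 and 13.10 in WT. The lowest KO array lay below the highest WT array. Its difference was 0.63 ± 0.144 (adjusted p = 0.0220). Col5a1, a chain of type V collagen, which starts fibrils and limits their width, read 8.18, 8.11, 8.60, 8.51 and 8.61 in KO, against 7.79, 7.63, 7.64, 7.92 and 8.05 in WT. The groups did not overlap, and the difference was 0.60 ± 0.131 (adjusted p = 0.0164).

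Col4a2 pairs with Col4a1 in the common type IV network of basement membranes. Its signal was 8.69, 8.99, 9.02, 9.27 and 9.35 in KO 0 h colon, against 8.29, 8.76, 8.09, 8.65 and 8.76 in WT, and 1 KO array lay among the WT arrays. It was higher by 0.55 ± 0.131 (adjusted p = 0.0254). Col4a5, a type IV chain of the smooth muscle basement membrane, read 8.53, 8.17, 8.32, 8.44 and 8.34 in KO, against 7.17, 7.62, 7.57, 7.99 and 8.24 in WT. Only 1 WT array reached the KO range, and the difference was 0.64 ± 0.172 (adjusted p = 0.0491).

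Col6a1, a chain of the beaded type VI filament, read 9.76, 9.58, 10.11, 10.10 and 9.99 in KO 0 h colon, against 9.09, 9.34, 9.02, 9.39 and 9.55 in WT. The groups lay apart, narrowly, and the difference was 0.63 ± 0.120 (adjusted p = 0.00700). Col15a1, a multiplexin of the basement membrane zone, read 6.20, 5.95, 6.68, 6.77 and 6.52 in KO, against 5.40, 5.72, 5.53, 6.10 and 5.70 in WT. The lowest KO array lay below the highest WT array. It was higher by 0.74 ± 0.154 (adjusted p = 0.0129). Col12a1, which decorates the surface of type I fibrils, was higher by 0.54 ± 0.144 (adjusted p = 0.0486).

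The uncalled members included neighbours of the called ones. Col4a1, Col5a2 and Col6a2 had positive differences of 0.60, 0.54 and 0.47, with adjusted p values of 0.0843, 0.0796 and 0.0619. Col14a1, another fibril-associated chain, had the next largest difference after the type I chains (0.81 ± 0.233, adjusted p = 0.0640), and its KO arrays all lay above its WT arrays. In all, 6 collagen genes had KO arrays wholly above WT arrays, where 1.99% of all genes did, and no collagen gene had them wholly below. The 6 were Col1a2, Col5a1, Col6a1, Col8a1, Col12a1 and Col14a1.

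Several of these genes have more than 1 probe set. At 0 h the second Col1a1 probe set differed by 0.48, against 1.00 for the one used here, and the mean of both differed by 0.74 (adjusted p = 0.0530). For Col12a1 the next probe set differed by 0.14 and the other 2, at the floor, by 0.00. The 3 probe sets of Col5a1 (0.60, 0.43 and 0.44) and the 2 of Col3a1 (0.63 and 1.04) and Col4a5 (0.64 and 0.64) were all positive. For Col1a2 a probe set of low signal differed by -0.0016, and the other 2 by 0.98 and 0.83.

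With batch as a term none of the 9 was called, and 14 genes were called among all tested. The median over the 30 collagen genes was then 0.18, and Col1a1, Col1a2 and Col15a1 differed by 0.55, 0.82 and 0.51 (adjusted p = 1, 0.588 and 1). The single KO 0 h array of the WT batch lay above all 5 WT 0 h arrays for 12 of the 30 and below all 5 for none. Over all genes 14.8% lay above and 10.5% below. Without the 2 doubted colon arrays the count was 3 (Col1a2, Col4a2 and Col6a1), and Col1a1 differed by 0.89 (adjusted p = 0.0686). The count over all genes was then 103, against 283 in the main fit. Leaving out 1 array gave a count of 4 for KO 0 h replicate 3, and of 5 for KO 0 h replicate 4 or WT 0 h replicate 1. Counts over all genes are not given here for single arrays left out. Col1a1, Col1a2, Col6a1 and Col15a1 kept their calls whichever single array of the 2 groups was left out.

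At 6 h no collagen gene was called between KO and WT colon by limma, where 0.879% of all genes were called. At an unadjusted p below 0.05 none of the 30 was higher and 3 were lower. The median difference was -0.03 and 12 of 30 differences were positive. Col1a1 signal was 10.15, 9.75, 9.62, 9.04 and 9.53 in KO 6 h colon, against 9.66, 9.95, 9.47 and 9.76 in WT 6 h colon. The WT arrays fell inside the KO range, and the difference was -0.10 ± 0.219 (adjusted p = 0.929). Col1a2 signal was 11.48, 11.15, 11.17, 10.69 and 10.93 in KO, against 10.71, 11.04, 10.96 and 10.91 in WT, and these also overlapped. Its difference was 0.18 ± 0.167 (adjusted p = 0.732). Both values are so small that their sign turned in some alternatives. Only Col5a3, another type V chain, had KO arrays wholly below WT arrays (-0.87 ± 0.318, adjusted p = 0.240), where 4.35% of all genes did.

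Skeletal muscle markers were followed on the same arrays. The mean over 10 skeletal muscle markers was 4.80 to 6.49 on KO 6 h arrays, against 3.30 to 6.09 on WT 6 h arrays, so the groups overlapped. All 10 had positive differences, of which Myh4 was called (1.30 ± 0.138, adjusted p = 2.22e-06). The mean over the 10 markers was 3.16 to 3.55 on KO 0 h arrays, where 8 of the 10 were within 0.5 of the floor. Smooth muscle markers had a mean of 12.11 to 12.41 on KO 6 h arrays, against 12.45 to 12.50 on WT 6 h arrays, with no overlap, 0 of 8 positive, a median of -0.20 and none called. The part of these markers in the 6 h collagen values was not tested.

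At 24 h a part of the collagen genes was again called higher in KO colon, and none with batch as a term. Of 30 tested, 9 were called, all higher, where 0.469% of all genes were called in either direction and 0.264% were called higher. The median was 0.49, against -0.0076 over all genes, and 26 of 30 were positive. By class these were 5 of 8 fibrillar chains tested (Col1a1, Col1a2, Col3a1, Col5a1, Col5a2), 1 of 4 basement membrane chains (Col4a2), 2 of 4 beaded filament chains (Col6a2, Col6a3), 1 of 2 multiplexins (Col15a1) and none of the FACIT, network or transmembrane chains.

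**Figure D2:**
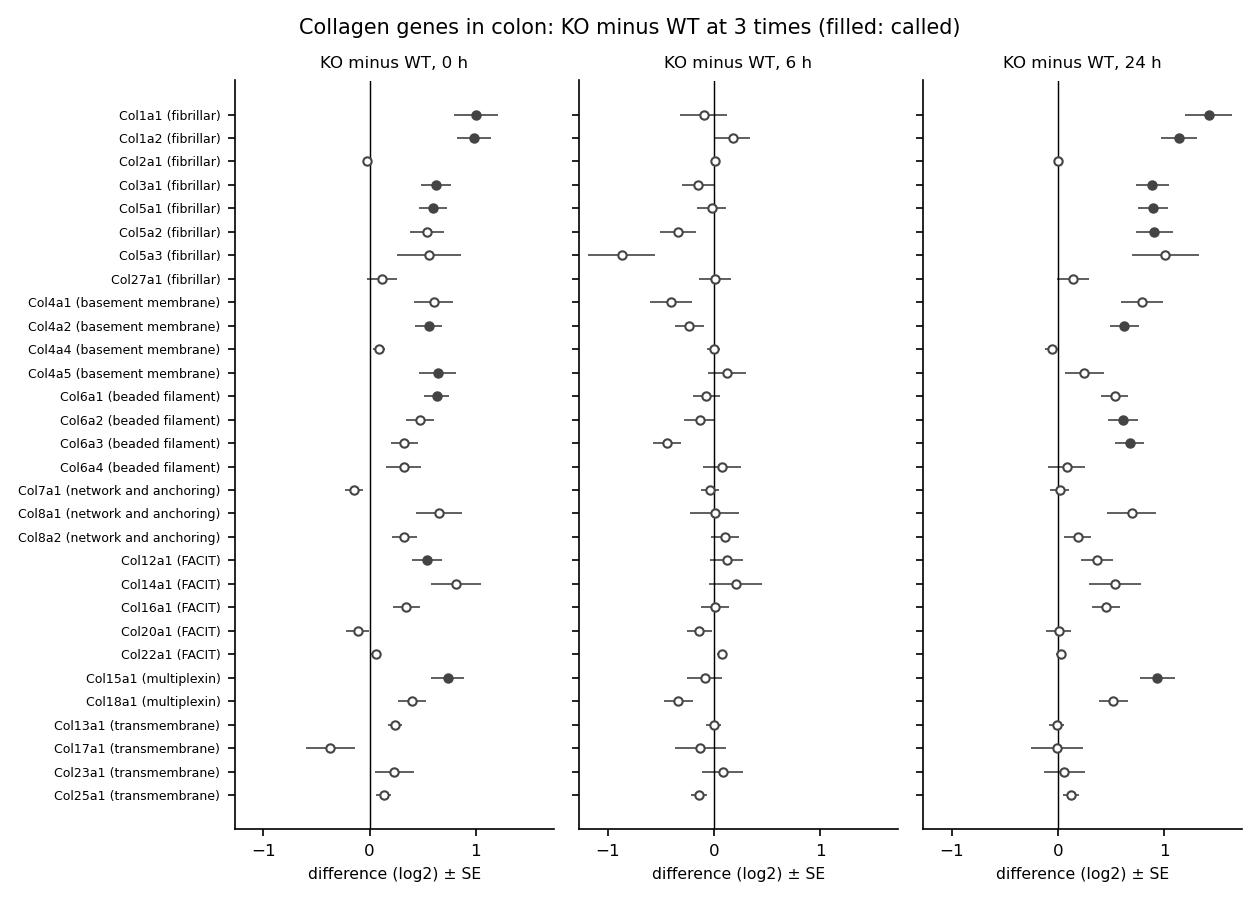
KO minus WT difference (log2, point) and its SE (line) for each of the 30 collagen genes tested in colon, at 0, 6 and 24 h. Filled points are called. Filled points stand right of 0 at 0 h and 24 h, 9 in each panel, and there is none at 6 h.

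Col1a1 signal was 9.95, 9.85, 10.42, 10.59 and 9.96 in KO 24 h colon, against 8.64, 8.62, 8.85 and 8.82 in WT 24 h colon. Every KO array stood far above every WT array. The difference was 1.42 ± 0.219, 2.68-fold (adjusted p = 0.000653). Col1a2 read 11.27, 11.31, 11.56, 11.87 and 11.14 in KO, against 10.09, 10.07, 10.59 and 10.41 in WT. The groups lay well apart, by 1.14 ± 0.167 (adjusted p = 0.000323). The second Col1a1 probe set differed by 1.43 at this time.

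Col3a1 read 13.34, 13.26, 13.59, 13.63 and 13.20 in KO 24 h colon, against 12.36, 12.36, 12.65 and 12.68 in WT, with no overlap and a difference of 0.89 ± 0.153 (adjusted p = 0.00261). Col5a1 read 8.35, 8.60, 8.89, 8.89 and 8.73 in KO, against 7.91, 7.48, 7.84 and 7.95 in WT, and was higher by 0.89 ± 0.139 (adjusted p = 0.000678). Col5a2, its partner in the type V trimer, read 9.72, 9.89, 9.98, 10.19 and 9.83 in KO, against 8.84, 8.93, 9.11 and 9.18 in WT, and was higher by 0.91 ± 0.173 (adjusted p = 0.00867). For all 3 fibrillar chains every KO array lay above every WT array.

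Col15a1 read 6.28, 6.48, 6.57, 6.71 and 6.23 in KO 24 h colon, against 5.84, 5.44, 5.36 and 5.45 in WT, and was higher by 0.93 ± 0.164 (adjusted p = 0.00331). Col6a3, the longest chain of type VI collagen, read 9.53, 9.57, 9.64, 9.69 and 9.45 in KO, against 9.01, 8.58, 8.89 and 9.11 in WT. It was higher by 0.68 ± 0.135 (adjusted p = 0.0145). Neither gene's groups overlapped. Col4a2 read 8.99, 9.12, 9.11, 9.48 and 9.12 in KO, against 8.35, 8.76, 8.50 and 8.55 in WT, which also did not overlap, and was higher by 0.63 ± 0.139 (adjusted p = 0.0342). Col6a2 was higher by 0.62 ± 0.142 (adjusted p = 0.0470).

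In all, 12 of 30 collagen genes had KO 24 h arrays wholly above WT 24 h arrays where 1.36% of all genes did, and none had them wholly below. Besides those named, Col4a1, Col5a3 and Col18a1 did not overlap (0.79, 1.01 and 0.52), with adjusted p values of 0.0672, 0.219 and 0.0922. Of the 9 genes called at 0 h, 6 were also called at 24 h (Col1a1, Col1a2, Col3a1, Col4a2, Col5a1 and Col15a1), which is 66.7% of each list. The 2 comparisons share no arrays, but both set KO arrays mostly of one batch against WT arrays of the other.

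All KO 24 h arrays belonged to the second batch, so with batch as a term the 24 h values rest on the 0 h array named above. No collagen gene was then called, and 9 genes were called among all tested. The median was 0.19, and Col1a1, Col1a2, Col3a1 and Col5a1 differed by 0.85, 0.94, 0.67 and 0.62 (adjusted p = 1 for each). The count lay between 7 and 9 when single arrays were left out. Col1a1, Col1a2, Col3a1, Col5a1, Col5a2 and Col15a1 kept their calls each time, and Col6a3 lost its call without WT 24 h replicate 2 (0.57, adjusted p = 0.0934).

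Over time, most collagen differences in WT colon were positive for 6 h against 0 h and negative for 24 h against 6 h, with few or no genes called. For 6 h against 0 h 2 collagen genes were called, both higher, where 2.18% of all genes were called and 1.44% were called higher. The median difference was 0.40 and 24 of 30 were positive. Col18a1, the multiplexin whose cleavage gives endostatin, read 5.74, 5.97, 5.97 and 5.58 in WT 6 h colon, against 5.02, 5.50, 5.27, 5.07 and 5.04 in WT 0 h colon. The groups did not overlap, and it was higher by 0.64 ± 0.138 (adjusted p = 0.0112). Col6a1 read 9.73, 9.91, 9.84 and 9.81 at 6 h, against 9.09, 9.34, 9.02, 9.39 and 9.55 at 0 h, again with no overlap, and was higher by 0.55 ± 0.127 (adjusted p = 0.0195).

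In all, 8 collagen genes had 6 h arrays wholly above 0 h arrays in WT colon, where 3.46% of all genes did, and none had them wholly below. Among them were Col1a1, Col1a2 and Col3a1 (0.73, 0.57 and 0.55), with adjusted p values of 0.0815, 0.0755 and 0.0549. The count of calls depended on single arrays. Among WT 0 h arrays, leaving out replicate 5 gave 9, replicate 4 gave 4 and replicate 1 or 3 gave 1. Among WT 6 h arrays, leaving out replicate 2 gave 1 and replicate 4 gave 0. All these arrays belong to 1 batch. Beside these changes, 10 of 10 fibroblast markers (median 0.32) and 8 of 8 smooth muscle markers (0.22) were positive in WT colon for 6 h against 0 h, none called, and their part was not tested.

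Between 24 h and 6 h in WT colon no collagen gene was called by limma, where 0.242% of all genes were called. At an unadjusted p below 0.05, 13 collagen genes were lower and none higher, with no share of all genes counted at that threshold. The median was -0.31, and 13 of 30 had 24 h arrays wholly below 6 h arrays, where 3.33% of all genes did. Col1a1, Col5a2, Col3a1 and Col6a3 differed by -0.98, -0.78, -0.70 and -0.62, with adjusted p values of 0.0743, 0.0668, 0.0635 and 0.0668. The count was 2 without WT 24 h replicate 1. Of the fibroblast markers 2 of 10 were positive (median -0.22) and of the smooth muscle markers 2 of 8 (-0.09), none called, and their part was not tested. Between 24 h and 0 h in WT colon none was called, although 5.29% of all genes were. At an unadjusted p below 0.05 1 was higher and none lower, and the median was 0.03. In WT colon the Col1a1 group means were 8.98, 9.71 and 8.74 and the Col1a2 group means 10.34, 10.91 and 10.29 at 0, 6 and 24 h.

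**Figure D3:**
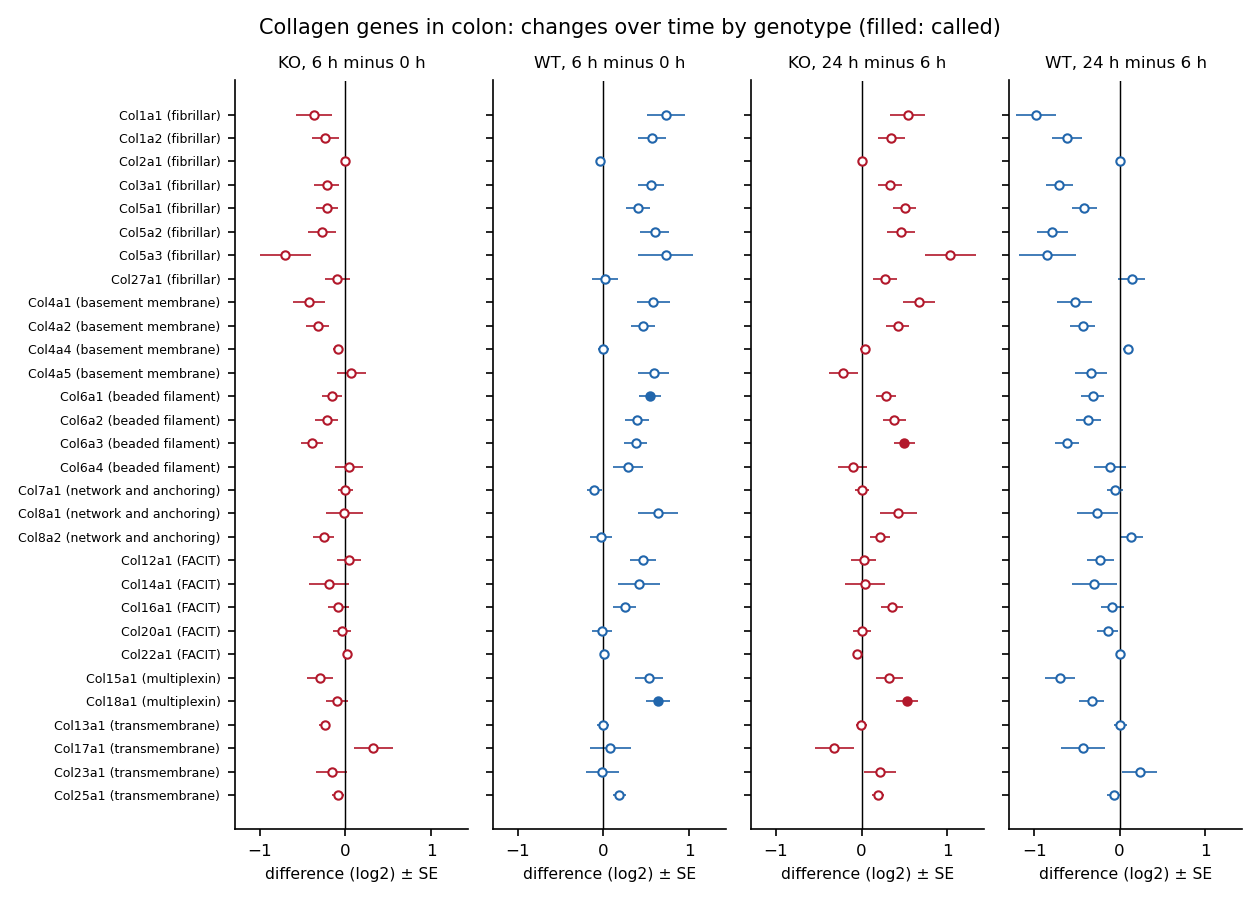
Change of each of the 30 collagen genes tested in colon between times (log2 difference, point) and its SE (line), with KO in red and WT in blue. Filled points are called. Most WT points lie right of 0 for 6 h minus 0 h and left of 0 for 24 h minus 6 h, and most KO points lie on the other side.

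KO colon ran the other way in sign. Between 6 h and 0 h no collagen gene was called, where 1.48% of all genes were called. At an unadjusted p below 0.05 none was higher and 6 were lower, the median was -0.16 and 6 of 30 differences were positive. Only Col17a1, near the floor, had 6 h arrays wholly above 0 h arrays (0.33, adjusted p = 0.595), where 1.94% of all genes did. Without KO 0 h replicate 1 the count was 2. In the same comparison 9 of 10 skeletal muscle markers were called higher (median 2.67), 9 of 9 squamous markers were positive (1.66, none called), and 0 of 8 smooth muscle markers (-0.23) and 3 of 10 fibroblast markers (-0.17) were positive, none called. Between 24 h and 6 h 2 were called, both higher, where 1.29% of all genes were called and 0.498% were called higher, and 24 of 30 were positive with a median of 0.28. Col18a1 read 5.98, 6.14, 6.02, 6.23 and 5.70 in KO 24 h colon, against 5.66, 5.37, 5.43, 5.43 and 5.51 in KO 6 h colon, with no overlap and a difference of 0.53 ± 0.130 (adjusted p = 0.0398). Col6a3 read 9.53, 9.57, 9.64, 9.69 and 9.45 at 24 h, against 9.43, 9.10, 8.84, 9.07 and 8.93 at 6 h, narrowly without overlap, and was higher by 0.50 ± 0.128 (adjusted p = 0.0478).

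Beside these, 6 of 10 skeletal muscle markers were called lower at 24 h than at 6 h (median -2.58), and 2 of 8 smooth muscle markers were called higher (0.32). The part of these markers in the KO changes was not tested. Both collagen calls were lost when single arrays were left out. Leaving out KO 24 h replicate 2, 3 or 4 or any of KO 6 h replicates 2 to 5 gave 0, and KO 24 h replicate 1 or 5 gave 1. Of the 30, 5 had 24 h arrays wholly above 6 h arrays, where 2.07% of all genes did. Between 24 h and 0 h in KO colon none was called, where 0.183% of all genes were. At an unadjusted p below 0.05 3 were higher and 1 was lower, and the median was 0.10. Only Col8a1 had 24 h arrays wholly above 0 h arrays (0.42, adjusted p = 0.665), where 0.623% of all genes did. With KO 0 h replicate 1 left out the count was 1.

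The difference between genotypes in these changes was tested as an interaction, in which a positive value means a larger change since 0 h in KO than in WT. At 6 h no collagen gene was called, where 0.0220% of all genes were called. At an unadjusted p below 0.05, 16 collagen genes were negative and none was positive, with no share of all genes counted at that threshold. The median was -0.56, against -0.013 over all genes, and 4 of 30 were positive. The largest in size were Col5a3 (-1.43 ± 0.437), Col1a1 (-1.10 ± 0.301) and Col4a1 (-1.004 ± 0.270), with adjusted p values of 0.246, 0.181 and 0.181. The smallest adjusted p of the family was 0.129. At 24 h none was called, where 0.0293% of all genes were, with 1 negative and none positive at an unadjusted p below 0.05 and a median of 0.09. So the opposite signs at 6 h were not established for any single gene.

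Genes that act on or with collagen were read from lists of their own. For KO against WT colon at 0 h, 10 of 16 fibril partners were called, all higher, where 1.38% of all genes were called higher, led by Mfap5 (1.23 ± 0.247, adjusted p = 0.00973) and Mfap4 (1.17 ± 0.182, adjusted p = 0.000770), both of microfibrils, and Tnxb (1.04 ± 0.177, adjusted p = 0.00235), a tenascin that binds fibrils. All 16 were positive. Of 13 basement membrane partners tested, 5 were called higher, among them the laminin chains Lama4 (0.75), Lama2 (0.69) and Lamc1 (0.57). Of 9 genes of collagen breakdown 3 were called higher, namely the gelatinase Mmp2 (1.08), the cathepsin Ctsk (1.05) and the uptake receptor Mrc2 (0.43).

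Among genes of collagen folding and processing 2 of 20 were called higher, with a list median of 0.04, namely Crtap (0.37), a partner of prolyl 3-hydroxylase, and Mia3 (0.35), which loads procollagen into transport vesicles. Of 4 protease inhibitors Timp2 was called (0.54), and none of 3 crosslinking genes or 6 collagen receptors. Of 9 genes of the TGF-beta axis, the connective tissue factor Ccn2 (0.76) and the inhibitor Smad7 (0.32) were called higher and Skil (-0.43), a repressor of the same pathway, was called lower. These calls share the split of batches. Over the 8 lists 23 of 80 genes tested were called higher and 1 lower, against none with batch as a term, where the medians were 0.60 for fibril partners (15 of 16 positive) and -0.03 for breakdown genes. Without the 2 doubted colon arrays 11 were called higher, among them Mfap4, Mfap5, Tnxb, Lama4 and Mmp2, and none lower. That setting called 103 of all genes, against 283 in the main fit.

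At 24 h in KO against WT colon 3 of 16 fibril partners were called higher, where 0.264% of all genes were called higher, namely Mfap4 (1.24 ± 0.193), Sparc (1.09 ± 0.155) and Fn1 (0.69 ± 0.130), and 15 of 16 were positive. Loxl1, a lysyl oxidase, was the 1 of 3 crosslinking genes called (0.94 ± 0.190, adjusted p = 0.0164), and Tgfbi the 1 of 9 on the TGF-beta axis (0.46). None of 20 folding, 9 breakdown, 4 inhibitor, 6 receptor or 13 basement membrane partner genes was called. At 6 h P3h2, a prolyl 3-hydroxylase, was called lower (-0.63 ± 0.149, adjusted p = 0.0371), and no other gene of these lists was called. With batch as a term none of the 80 was called at 6 h or 24 h, and the fibril partners had a median of 0.49 at 24 h, with 14 of 16 positive.

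Between 6 h and 0 h in WT colon 4 of 16 fibril partners were called higher, where 1.44% of all genes were called higher. They were led by Mfap4 (0.78), Sparc (0.61) and Fn1 (0.57). Also called higher were Mmp2 (1.11) of the breakdown genes and Lama5 (0.77), Lama4 (0.45) and Lamb1 (0.39) of the laminins. Between 24 h and 0 h 5.29% of all genes were called in either direction. Mmp2 (1.15 ± 0.199, adjusted p = 0.00135) and Lama5 (0.76) were still called higher there, while no collagen gene was called. The list median of fibril partners was -0.20 between 24 h and 6 h in WT colon, with no gene called.

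Markers of other cell types were followed on the same arrays. The mean over 10 fibroblast markers lay between 8.04 and 8.55 on KO 0 h colon arrays, against 7.48 to 7.92 on WT 0 h arrays. All 10 were positive, with a median of 0.53, and 5 were called (Clec3b, Mfap5, Lum, Dcn and Dpt), of which Mfap5, Lum and Dcn are also fibril partners here. At 24 h it lay between 7.91 and 8.73 on KO arrays, against 7.55 to 7.99 on WT arrays, with 9 of 10 positive and none called. The mean over the 25 collagen genes above the floor lay between 7.31 and 7.72 in KO against 6.80 to 7.25 in WT at 0 h, between 7.17 and 7.55 in KO against 7.38 to 7.47 in WT at 6 h, and between 7.49 and 7.89 in KO against 7.03 to 7.14 in WT at 24 h. At 0 h both means were higher on every KO array than on every WT array, and at 24 h this held for the collagen mean, while the fibroblast mean overlapped. At 6 h the fibroblast mean lay between 8.01 and 8.38 in KO against 7.98 to 8.19 in WT.

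**Figure D4:**
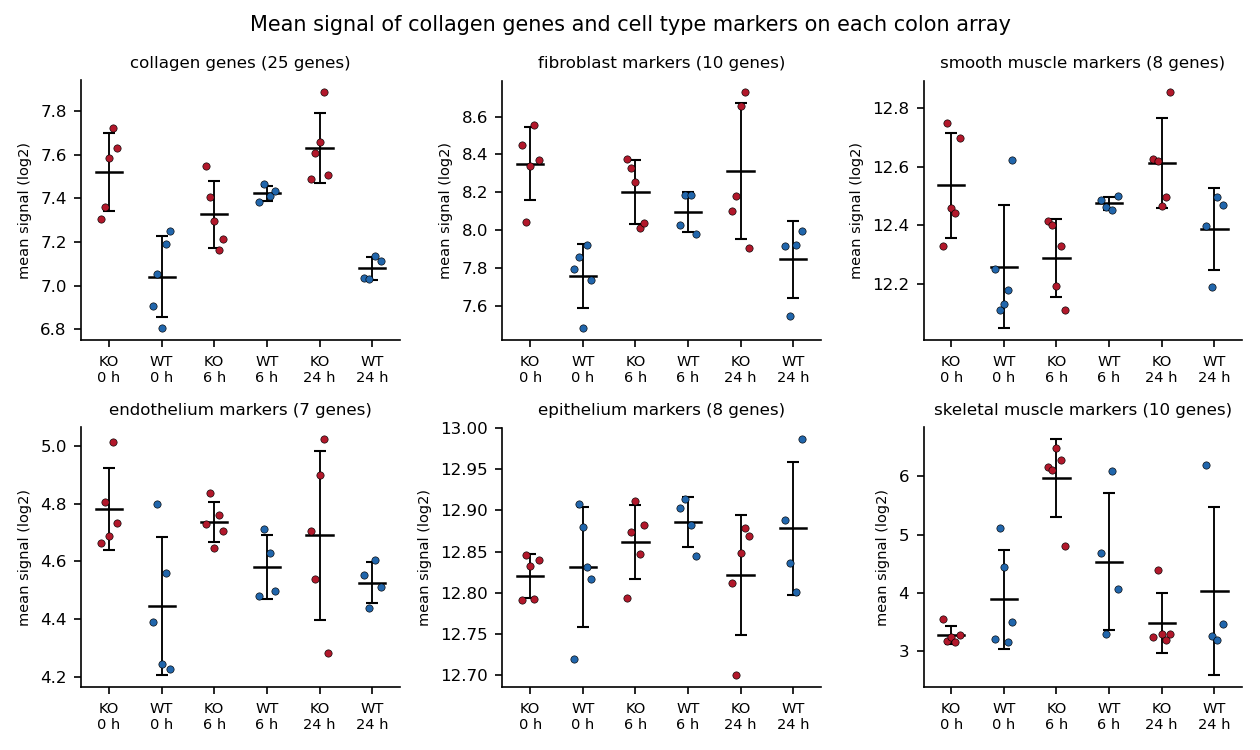
Mean log2 signal per colon array of the 25 collagen genes above the floor and of 5 lists of cell type markers, by genotype and time (red KO, blue WT). Points are arrays, the long bar is the group mean and the error bar its SD, and axes do not start at 0. Collagen and fibroblast panels are both higher in KO at 0 h, and the epithelium panel spans only 12.70 to 12.99.

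The mean over 8 smooth muscle markers lay between 12.33 and 12.75 in KO against 12.11 to 12.62 in WT at 0 h, and between 12.47 and 12.86 in KO against 12.19 to 12.50 in WT at 24 h, with no marker called. With the 6 h values given above, the group means at 0, 6 and 24 h were 12.54, 12.29 and 12.61 in KO and 12.26, 12.48 and 12.39 in WT, in the same order over time as the Col1a1 group means in KO. In WT both had their highest group mean at 6 h. Epithelium markers lay between 12.79 and 12.85 in KO against 12.72 to 12.91 in WT at 0 h, with none of 8 called. Adipocyte markers had a median difference of 0.77 at 0 h and -1.38 at 24 h, none called. Squamous and pancreas markers had medians of -1.30 and -1.29 at 0 h, none called. Endothelium markers had a median of 0.28 with none of 7 called, and mitosis genes a median of -0.79 with none of 8 called. None of 5 enteric glia and neuron markers or 4 mesothelium markers was called. The part of these markers in the collagen differences was not tested.

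Among single colon arrays, KO 24 h replicate 4 gave the highest value for 11 of the 25 genes above the floor. WT 0 h replicate 3 gave the lowest for 8, and WT 0 h replicate 1 and WT 24 h replicate 2 for 5 each.

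In jejunum type I and III collagen signal was higher on average in KO than in WT at 0, 6 and 24 h, but no such gene was called in the fit used here. Some were called under other settings at 0 h and 24 h. None was called with no filter, with eBayes without trend or with the replicate number as a block. Except for KO 0 h replicate 1, the KO arrays belong to another batch than the WT arrays. Batch as a term, which rests on that 1 KO array, is taken up below. With array weights Col1a1, Col1a2 and Col3a1 were called higher at 0 h and 24 h, where 82 and 795 of all genes tested were called. Col7a1 and Col9a3 were called lower at 24 h in that fit. With the mean of a gene's probe sets Col1a2 and Col3a1 were called higher at 0 h and Col3a1 at 24 h, where 28 and 91 of all genes were called. Without the doubted jejunum array Col1a2 was called higher at both times, where 41 and 227 of all genes were called. At 24 h Col7a1 was called lower in both of these settings, and Col9a3 without the doubted array. At 0 h none of 30 was called by limma, where 0.183% of all genes were called. At an unadjusted p below 0.05, 6 collagen genes were higher and none lower, with no share of all genes counted at that threshold. The median difference was 0.17. Col1a2 read 8.62, 8.74, 8.57, 8.89 and 8.99 in KO 0 h jejunum, against 7.03, 8.36, 7.96, 7.43 and 6.97 in WT 0 h jejunum. It was the 1 gene of the family without overlap, where 0.982% of all genes lay wholly above. Its difference was 1.21 ± 0.273 (adjusted p = 0.0762).

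Col1a1 read 7.15, 7.90, 6.95, 8.18 and 7.92 in KO 0 h jejunum, against 5.54, 7.74, 7.0, 6.21 and 6.33 in WT, and differed by 1.06 ± 0.359 (adjusted p = 0.371). WT replicate 2 reached into the KO range. Col3a1 read 11.04, 11.46, 11.37, 11.55 and 11.52 in KO, against 9.56, 11.22, 10.61, 10.26 and 9.81 in WT, and differed by 1.09 ± 0.296 (adjusted p = 0.172). The same WT array was again the highest. Without it the count of called collagen genes was 1, and 0 without any other single array of these groups.

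**Figure D5:**
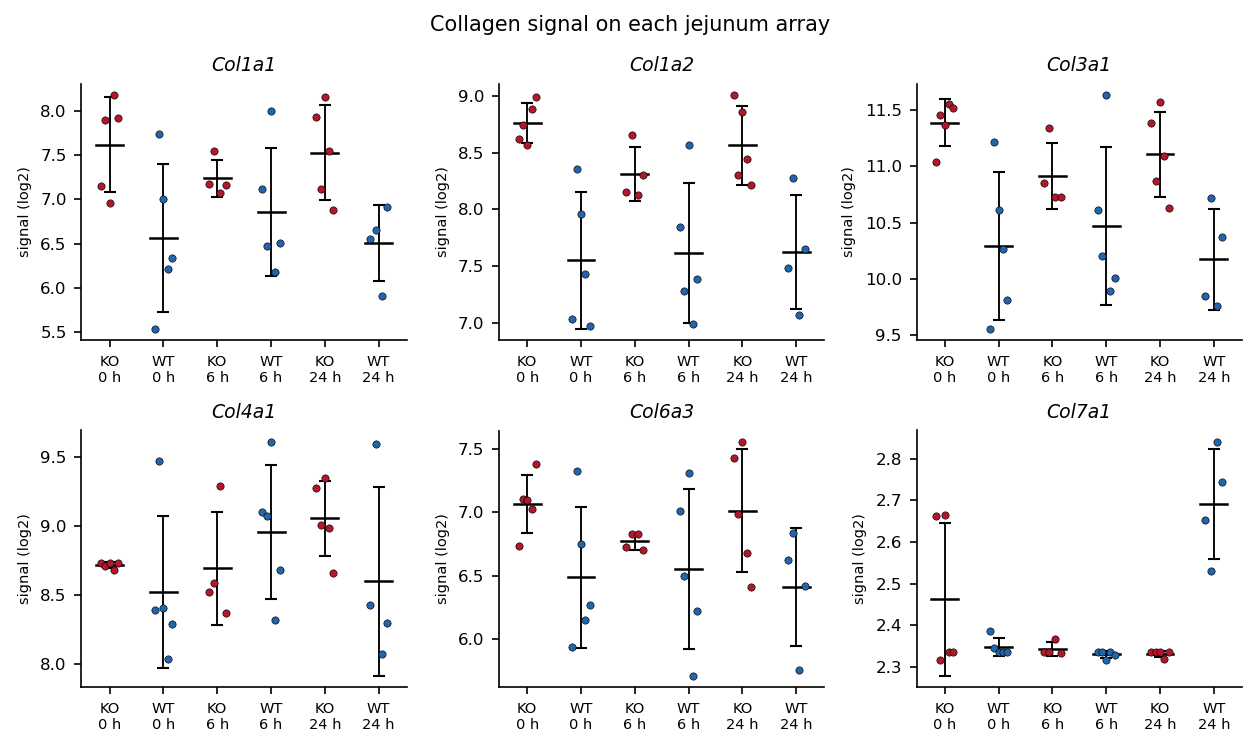
Log2 signal of 6 collagen genes on each jejunum array, by genotype and time (red KO, blue WT). Points are arrays, the long bar is the group mean and the error bar its SD, and axes do not start at 0. WT points of Col1a1, Col1a2 and Col3a1 spread over more than 1 log2 unit at 0 h. Col7a1 stays near the floor of 2.32, with its highest group mean, 2.69, in WT at 24 h.

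At 6 h in jejunum none was called, where 2.14% of all genes were, with 3 higher and 2 lower at an unadjusted p below 0.05 and a median of 0.04. Col1a2 read 8.16, 8.66, 8.13 and 8.31 in KO 6 h jejunum, against 7.85, 7.28, 8.57, 6.99 and 7.38 in WT, where replicate 3 alone reached the KO arrays, and differed by 0.70 ± 0.290 (adjusted p = 0.207). Col1a1 read 7.18, 7.55, 7.07 and 7.16 in KO, against 7.12, 6.48, 8.01, 6.18 and 6.51 in WT, with WT replicate 3 above all KO arrays, and differed by 0.38 ± 0.381. Without that array the count was 1.

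At 24 h Col1a1 read 7.93, 7.12, 8.16, 7.54 and 6.88 in KO jejunum, against 6.55, 6.66, 5.91 and 6.91 in WT, and differed by 1.02 ± 0.381 (adjusted p = 0.279). Only the lowest KO and the highest WT array overlapped. Col1a2 read 9.01, 8.30, 8.86, 8.45 and 8.22 in KO, against 7.49, 8.28, 7.07 and 7.65 in WT, and differed by 0.94 ± 0.290 (adjusted p = 0.155). Col14a1 alone had KO arrays wholly above WT arrays (1.04 ± 0.390, adjusted p = 0.279), where 3.53% of all genes did. The 1 gene called at 24 h was lower, where 0.704% of all genes were called and 0.388% were called lower, and the median over the 30 was 0.21.

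That gene was Col7a1, whose chain forms the anchoring fibrils under stratified epithelium. It stayed near the floor of 2.32 throughout, reading 2.34, 2.34, 2.34, 2.32 and 2.34 in KO 24 h jejunum, against 2.65, 2.53, 2.84 and 2.74 in WT 24 h jejunum. No KO array reached a WT array, as for 1.85% of all genes in that direction. The difference was -0.36 ± 0.0626 (adjusted p = 0.00374). Adding batch to the fit gave -0.11 (adjusted p = 0.823). In WT jejunum it was also higher at 24 h than at 0 h (0.34 ± 0.0626, adjusted p = 0.00415) and than at 6 h (0.36 ± 0.0626, adjusted p = 0.00763). It was the only collagen gene called in those 2 comparisons, where 1.40% and 0.755% of all genes were called, and 0.557% and 0.462% were called higher. Its signal was 2.39, 2.35, 2.34, 2.34 and 2.34 in WT 0 h jejunum and 2.34, 2.34, 2.32, 2.34 and 2.33 in WT 6 h jejunum. The WT 24 h arrays stood above all other WT arrays, as for 1.94% of all genes against 0 h and 2.03% against 6 h, though 2 KO 0 h arrays had 2.66 and 2.67. These calls held whichever single array was left out, and are small differences next to the floor. Without WT 24 h replicate 2 the counts were 3 for KO against WT and 2 in each of the WT comparisons, and without WT 24 h replicate 3 the count was 2 for WT 24 h against 0 h. Col27a1 also had WT 24 h arrays wholly above WT 6 h arrays (0.27, adjusted p = 0.503).

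In the other jejunum comparisons over time no collagen gene was called. Those were 6 h against 0 h in WT (0.432% of all genes called) and in KO (0.660%), and in KO 24 h against 0 h (0.689%) and 24 h against 6 h (0.117%). At an unadjusted p below 0.05 the counts were 0 in both 6 h comparisons, 1 higher and 1 lower for KO 24 h against 0 h, and 1 higher for KO 24 h against 6 h. Col18a1 had KO 24 h arrays wholly above KO 0 h arrays, where 1.35% of all genes did, and with Col6a4 wholly above KO 6 h arrays, where 3.71% did. No interaction was called among collagen genes or among all genes (0.00%), with 2 collagen genes negative at an unadjusted p below 0.05 at 24 h and none at 6 h. With batch as a term, KO against WT in jejunum rests on 1 KO array, KO 0 h replicate 1. The median difference over the 30 collagen genes was then 0.18, 0.0026 and 0.25 at 0, 6 and 24 h. On that array Col27a1, Col4a6 and Col8a1 read 5.82, 3.37 and 3.13, each the highest jejunum value of its gene. By group means Col4a6 and Col8a1 stayed at the floor in jejunum. The single KO 0 h jejunum array of the WT batch lay above all WT 0 h arrays for 7 of 30 and below for 1, where 25.2% and 17.4% of all genes did.

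The partner lists gave few calls in jejunum. Between KO and WT, 1 of 78 genes tested over the 8 lists was called, Mfap5, higher at 6 h (0.21 ± 0.0524, adjusted p = 0.0334). At 6 h 2.14% of all genes were called. Clec3b, a fibroblast marker, was called higher at 24 h (0.46 ± 0.110, adjusted p = 0.0497), where 0.704% of all genes were called. Without the doubted jejunum array 0, 3 and 1 of the 78 were called higher at 0, 6 and 24 h. That setting called 41, 368 and 227 of all genes. The mean over the fibroblast markers lay between 5.54 and 5.89 on KO 0 h arrays, against 4.997 to 5.68 on WT 0 h arrays, and its 10 members all had positive differences. The mean over the 23 collagen genes above the floor lay between 5.65 and 5.82 on KO 0 h arrays, against 5.11 to 5.96 on WT 0 h arrays. Epithelium markers had a mean of 12.59 to 13.08 on KO 0 h arrays, against 12.46 to 12.59 on WT 0 h arrays, with 8 of 8 positive and none called. Exocrine pancreas markers varied between single arrays, with a mean of 3.12 to 7.18 on KO 0 h arrays, against 4.30 to 13.05 on WT 0 h arrays, and of 3.30 to 9.67 on KO 24 h arrays, against 3.15 to 13.60 on WT 24 h arrays. All 7 pancreas markers were negative at both times, with medians of -2.92 and -4.92, none called. The part of these markers in the jejunum collagen values was not tested. Colon and jejunum were deposited as separate tables with different floors, and no value was tested between them.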

How the data were processed

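Whole colon and jejunum were measured on 56 Affymetrix mouse arrays. The authors deposited log2 signals for 45101 probe sets, as a table for each tissue with a floor of its own, and GCRMA and RMA are named, without versions or their roles, per the submitters' processing notes. Of the probe sets 34958 name 1 gene, 932 several and 9211 none, and only the first kind was used to name genes, except for the targeted gene. For colon, 1 column of per-sample values could not be matched to a sample and was not used, so KO 24 h replicate 3 was read from the series' own value table, and its batch was assigned by elimination. All other matched columns equalled that table. Batches are those of the array names.

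From these values the brightest probe set on average stood for each gene, and a filter removed the lowest 25% of genes by mean over all arrays of the tissue. Group means were fitted with limma 3.58.1 in R 4.3.3 over the 28 arrays and 6 groups of each tissue, with eBayes and a trend, two-sided, and Benjamini-Hochberg adjusted p-values were called below 0.05 in every comparison. A difference is given with its SE. Mice are replicates as the labels give them. The members, lists and tests were chosen with earlier results of these data known. Values on every array are given for Col1a1, Col1a2 and up to 8 called members per comparison by size, and for the other lists up to 3 called members each. Alternatives were no filter, the mean of a gene's probe sets, eBayes without trend, array weights, batch as a term, the replicate number as a block, each array left out and, chosen after seeing the data, 3 doubted arrays left out. Within a tissue the replicate numbers were not taken to pair the samples, since each array there is a different mouse. Whether colon and jejunum arrays share mice was not examined.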

Additional observations from a re-analysis of the deposited data

Results flagged for a closer look

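Single arrays were compared with the rest of their group for each called collagen gene and for the mean of the collagen genes above the floor, 96 groups in all. By chance about 1 group in 20 has an array that stands apart by this measure, and 6 did. In colon, Col12a1 was 6.64 on WT 6 h replicate 2, against 7.23 to 7.24 on the others. Col4a2 was 9.48 on KO 24 h replicate 4, against 8.99 to 9.12 on the others of its group. Col6a3 was 9.31 on WT 6 h replicate 1, against 9.58 on each of the other 3 to 2 decimals. In jejunum, Col7a1 was 2.37 on KO 6 h replicate 4, against 2.33 to 2.34, and 2.39 on WT 0 h replicate 1, against 2.34 to 2.35. It was 2.32 on KO 24 h replicate 4, against 2.34. The last 3 are next to the floor of 2.32.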

How the results depend on the processing

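Counts of called collagen genes moved as follows where they differed by more than 1.5 times. With batch as a term, KO against WT in colon gave 0 at 0 h and 0 at 24 h, and WT 24 h against 6 h gave 1, KO 6 h against 0 h 2 and KO 24 h against 0 h 1. For jejunum KO against WT the counts with that term also moved, but they rest on 1 KO array. Array weights gave, in colon, 1 for KO against WT at 6 h, 7 for WT 6 h against 0 h, 5 for WT 24 h against 6 h, 1 for KO 6 h against 0 h, 5 for KO 24 h against 6 h and 1 for the 6 h interaction. Among all genes tested, the counts were, in the same order, 654, 640, 233, 503, 511 and 29. In jejunum, array weights gave 3, 2 and 9 for KO against WT at 0, 6 and 24 h, 2 for WT 24 h against 0 h, 3 for KO 6 h against 0 h, 2 for KO 24 h against 6 h and 1 for the 24 h interaction. Among all genes tested, the KO against WT counts were 82, 1293 and 795 at 0, 6 and 24 h. The other all-gene counts were, in the same order, 1101, 3615, 1147 and 26. Of the collagen calls for KO against WT, 0, 1 and 2 were lower at 0, 6 and 24 h. For KO 6 h against 0 h all 3 were lower. The mean of a gene's probe sets gave 1 for KO 24 h against 6 h in colon, and 2 and 2 for KO against WT in jejunum at 0 h and 24 h. For KO 24 h against 6 h in colon, no filter gave 0 and eBayes without trend 1. Without the doubted arrays KO against WT gave 3 in colon at 0 h and, in jejunum, 1 at 0 h (Col1a2, where the array left out enters only the shared spread) and 3 at 24 h, WT jejunum gave 2 for 24 h against 0 h and 2 against 6 h, and the jejunum 24 h interaction gave 1. Over all genes these counts were, in the same order, 103, 41, 227, 132, 164 and 6.

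With single arrays left out the counts ranged from 4 to 13 (KO against WT, 0 h), 7 to 9 (24 h), 0 to 9 (WT 6 h against 0 h), 0 to 2 (WT 24 h against 6 h), 0 to 2 (KO 6 h against 0 h), 0 to 1 (KO 24 h against 0 h) and 0 to 3 (KO 24 h against 6 h) in colon. In jejunum they ranged from 0 to 1 (KO against WT, 0 h), 0 to 1 (6 h), 1 to 3 (24 h, the 3 without WT 24 h replicate 2), 1 to 2 (WT 24 h against 0 h, the 2 without WT 24 h replicate 2 or 3), 1 to 2 (WT 24 h against 6 h, the 2 without WT 24 h replicate 2) and 0 to 1 (24 h interaction, the 1 without WT 24 h replicate 2 or KO 0 h replicate 2). The remaining counts stayed at 0. The sign of the 6 h colon difference turned for Col1a1 with array weights (0.0491, adjusted p = 0.936) and without KO 6 h replicate 4 (0.0485, adjusted p = 0.995; range over single arrays left out -0.2295 to 0.0485), and for Col1a2 with batch as a term (-0.0214, adjusted p = 1). Adding the replicate number as a block gave 8 and 8 calls for KO against WT in colon at 0 h and 24 h and moved no count by more than 1.5 times. Same-numbered arrays did not deviate together (median correlation 0.01 in colon and 0.012 in jejunum). The cause of these changes was not tested. Genes at the floor carry no order, and genotype cannot be told apart from batch at 6 h and 24 h except through 1 KO 0 h array in each tissue.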
